A study of Mesocricetus auratus with 6 samples.

Results

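The 10 genes described here are 10 of the 31593 genes in the deposited matrices and were chosen by name because they carry signals into and between the neurons of the suprachiasmatic nucleus (SCN). They are the receptor genes *Vipr2*, *Avpr1a*, *Prokr2*, *Grpr*, *Adcyap1r1*, *Mtnr1a*, *Htr7* and *Gpr176*, and the signalling genes *Rasd1* and *Rgs16*. By RNA-seq, their RNA was measured in cortex, SCN and liver of wild-type and *duper* Syrian hamsters (*Mesocricetus auratus*) at CT15, a circadian time in the early subjective night of these nocturnal animals. The *duper* allele is described in the series as a null mutation of the clock repressor gene *Cry1*. The *duper* hamsters came from a cross to the LVG ecotype and, per the methods, from animals without the *tau* mutation, and the wild-type hamsters were LVG. All were raised in a light-dark cycle, and their age was not given in the sources used here. The 4 *duper* hamsters were female and the 4 wild-type hamsters were 2 males and 2 females, so sex and genotype cannot be told apart in full. The deposit held 1 sample per genotype and tissue, 6 in all, each called a library here, although the methods describe a separate liver library for each hamster. For cortex and SCN, 4 hamsters of a genotype were pooled into the library, and for liver, reads of 4 hamsters were merged, so that the spread between hamsters was not measured and p-values measure only the spread between these libraries.

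The SCN is the master circadian pacemaker of mammals. It receives light input from the retina by glutamate and the peptide PACAP and other input by serotonin, and its neurons keep each other in phase through peptides such as VIP, vasopressin and GRP. Most of these signals act on G protein-coupled receptors that raise cyclic AMP or calcium in the receiving cell, and regulators of G protein signalling shorten or shape the response.

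The total of estimated counts per library ranged from 6788947 in the wild-type cortex to 85748562 in the *duper* liver, and the SCN totals were 29936218 for wild type and 7248840 for *duper*. The *duper* SCN library thus gave about the depth of the cortex libraries, and a gene in it was counted less precisely than in the wild-type SCN. Levels are given as TPM, a share of all transcripts that is scaled for transcript length and library total. The targeted gene *Cry1* had 16.8 to 33.3 TPM in the wild-type libraries and 5.44 to 8.56 TPM in the *duper* libraries. The SCN label was checked against 9 markers. *Nms*, a peptide gene of SCN neurons, had 33.5 TPM (wild type) and 13.4 TPM (*duper*) in the SCN and was listed at 0 in the other 4 libraries. *Six6* had 8.79 and 6.0 TPM in the SCN and at most 0.31 TPM in cortex. Others of the 9 separated the tissues less or the other way. *Rorb* had 28.6 and 26.8 TPM in cortex against 17.7 and 17.7 TPM in the SCN, and *Gad1* 193 and 164.8 TPM against 201.7 and 208.2 TPM. *Gad2* had 128.9 and 141.1 TPM in cortex against 263.8 and 290.3 TPM in the SCN, and *Syt10* 7.60 and 10.2 TPM against 19.2 and 15.8 TPM. The cortical markers summed to 35.4 and 30.8 TPM in the SCN against 1116 and 1018 TPM in cortex. *Vip* and *Avp* were not analysed here. Of the 10 genes, 9 passed the filter on low counts, which *Grpr* passed only through libraries that included the SCN. *Mtnr1a* did not pass.

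**Figure D1:**
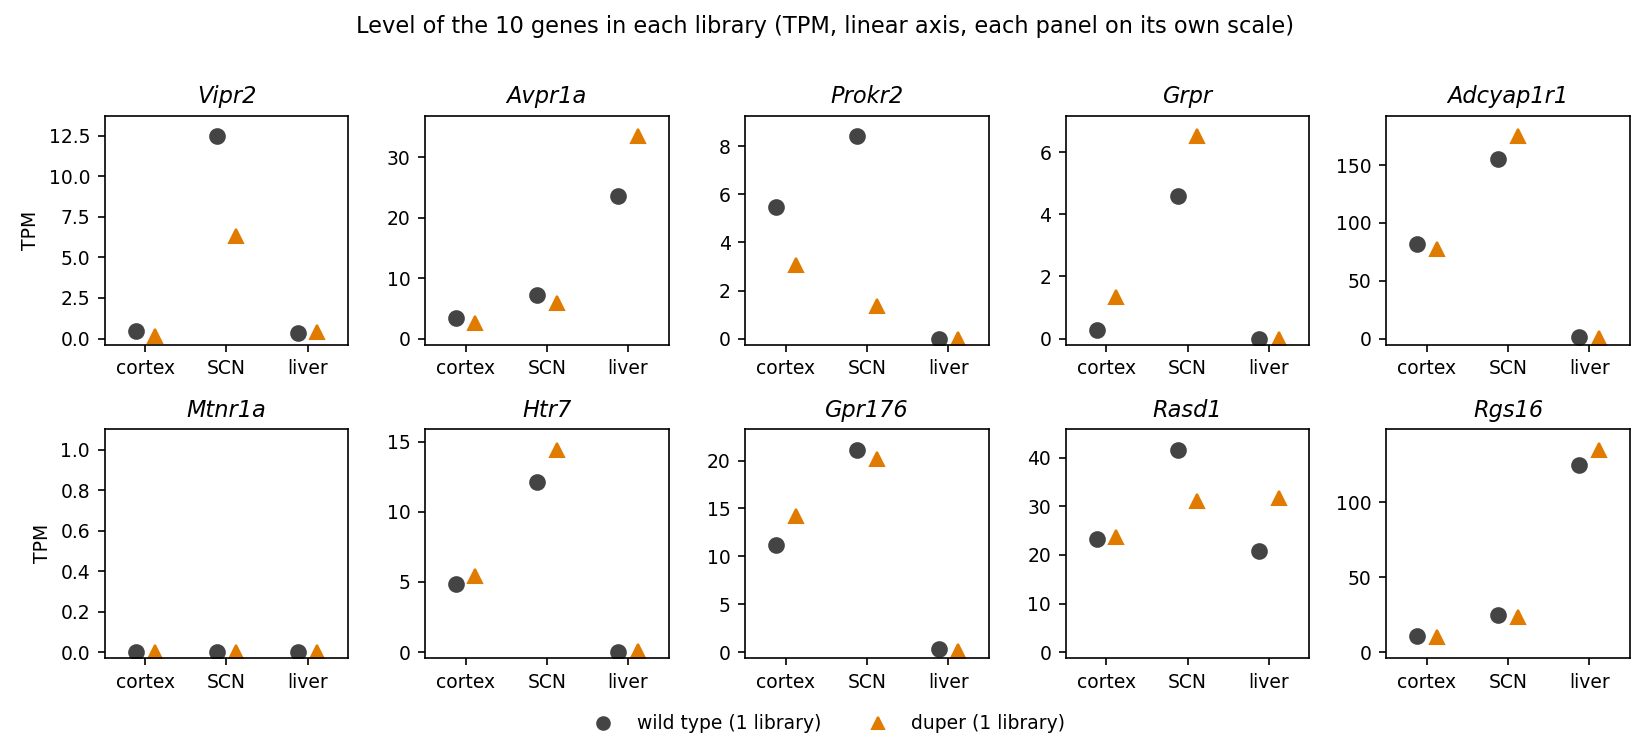
Level in TPM (vertical axis, linear, a separate scale in each panel) of each gene in cortex, SCN and liver, with wild-type libraries as grey circles and *duper* libraries as orange triangles, 1 library each. *Vipr2*, *Grpr*, *Adcyap1r1*, *Htr7* and *Gpr176* were higher in both SCN libraries than in the other 4, *Avpr1a* and *Rgs16* were highest in liver, and *Mtnr1a* was at 0 throughout. The share of all genes that separate in this way was not computed.

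Among the receptors of peptides released by SCN neurons, *Vipr2*, which encodes the main receptor for VIP in the SCN, stood out by tissue. It had 12.5 and 6.32 TPM in the wild-type and *duper* SCN, 0.467 and 0.186 TPM in the wild-type and *duper* cortex, and 0.341 and 0.398 TPM in the wild-type and *duper* liver. Both SCN libraries were far above the other 4, which did not overlap with them. The share of all genes whose tissues do not overlap was not computed, so this is a description, here and for the genes below. *Vipr2* was also the only one of the 10 with estimated counts that were not whole, which means that part of its reads was shared with other transcripts.

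*Grpr*, the receptor gene for GRP, had 4.60 and 6.51 TPM in the wild-type and *duper* SCN, 0.270 and 1.34 TPM in cortex, and was listed at 0 in both livers. The cortex values rested on 2 and 15 estimated counts. Both SCN libraries again lay above all others. *Avpr1a*, the receptor through which vasopressin raises calcium in SCN neurons and in hepatocytes, had 7.25 and 5.90 TPM in the wild-type and *duper* SCN, 3.40 and 2.62 TPM in cortex, and 23.6 and 33.4 TPM in liver. Its 3 tissues did not overlap and the order was liver, SCN, cortex. *Prokr2*, the receptor gene for the SCN output peptide prokineticin 2, had 8.42 but 1.37 TPM in the wild-type and *duper* SCN, against 5.46 and 3.07 TPM in cortex, and was listed at 0 in both livers. Its SCN libraries were the highest and the lowest of the 4 brain libraries, so its SCN and cortex levels overlapped.

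Among the receptors of input signals, *Adcyap1r1*, which encodes the PACAP receptor, was the most abundant of the 10 in brain. It had 155.7 and 175.0 TPM in the wild-type and *duper* SCN, 81.7 and 77.3 TPM in cortex, and 1.01 and 0.797 TPM in liver. *Htr7*, a serotonin receptor gene, had 12.1 and 14.4 TPM in the SCN, 4.87 and 5.39 TPM in cortex, and 0.0103 and 0.0859 TPM in liver, the first of which was a single count. The tissues of both genes did not overlap. *Mtnr1a*, a melatonin receptor gene, was listed at 0 in all 6 libraries. A count of 0 allows up to 3 counts, which is 0.22 TPM in the wild-type SCN, 0.929 TPM in the *duper* SCN and 1.1 TPM in the wild-type cortex, so that a level below these was not detectable at this depth. It has 1 annotated transcript, of 1083 bases, and whether that model is complete, so that reads of the gene could be assigned to it, was not checked.

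*Gpr176*, an orphan receptor gene known from the SCN, had 21.1 and 20.2 TPM in the wild-type and *duper* SCN, 11.2 and 14.2 TPM in cortex, and 0.345 and 0.136 TPM in liver. The genes that act behind receptors were present in liver too. *Rasd1*, which encodes a Ras-like G protein that shapes the response of the clock to light, had 41.7 and 31.0 TPM in the SCN, 23.3 and 23.7 TPM in cortex, and 20.9 and 31.7 TPM in liver. Its SCN and liver levels overlapped. *Rgs16*, which encodes a protein that shortens signalling by inhibitory G proteins, had 24.8 and 23.2 TPM in the SCN, 11.1 and 9.93 TPM in cortex, and 125.1 and 135.0 TPM in liver. Its tissues did not overlap, and both livers were the highest.

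By mean level in the SCN, the order of the 10 was *Adcyap1r1* at 165.4 ± 13.6 TPM (SD, n = 2, 1 library of each genotype, as for the others), *Rasd1* at 36.4 ± 7.51, *Rgs16* at 24.0 ± 1.17, *Gpr176* at 20.7 ± 0.65, *Htr7* at 13.3 ± 1.62, *Vipr2* at 9.39 ± 4.34, *Avpr1a* at 6.58 ± 0.96, *Grpr* at 5.56 ± 1.35, *Prokr2* at 4.89 ± 4.99 and *Mtnr1a* at 0 TPM. *Adcyap1r1* stood clear of all others. *Htr7* and *Vipr2* were apart by less than the spread of *Vipr2*, the neighbours *Vipr2* and *Avpr1a* overlapped, and so did *Avpr1a*, *Grpr* and *Prokr2*.

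For SCN over cortex, the rounded counts of all 6 libraries entered 1 edgeR fit with terms for tissue and for genotype. The 2 genotypes stood in for replicates of a tissue, and the 3 tissues for replicates of a genotype. The spread behind the standard errors and p-values is thus how far genotype ratios differ between tissues, not a spread between replicates. Calls needed a log2 fold change beyond 0.58 in size and a p under 0.05 after Benjamini-Hochberg adjustment. *Vipr2*, *Grpr*, *Adcyap1r1* and *Rgs16* were called higher in the SCN. *Grpr* entered the test only through libraries that included the SCN, where it is high, so its call is a description. Of the 8 genes that passed the filter without the SCN libraries, 3 were called higher and 0 lower, where 10.6% of the 19780 genes tested were called in either direction, 3.77% higher and 6.8% lower. The median log2 fold change was 1.14 over these 8 and 0.03 over all genes. *Vipr2* was 30.2-fold higher in the SCN (log2 4.92, standard error 0.59, adjusted p = 0.00313, edgeR quasi-likelihood test). *Grpr* was 7.42-fold higher (log2 2.89, standard error 0.67, adjusted p = 0.0478 in the same edgeR test). *Adcyap1r1* was 2.09-fold higher (log2 1.06, standard error 0.15, edgeR adjusted p = 0.00535) and *Rgs16* 2.32-fold higher (log2 1.22, standard error 0.18, edgeR adjusted p = 0.00751). In bulk tissue, fewer cells of a type and less RNA per cell cannot be told apart.

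The other 5 genes tested did not pass. *Htr7* was at 1.47 on the log2 scale (standard error 0.48, edgeR adjusted p = 0.104) and *Avpr1a* at 1.23 (standard error 0.36, edgeR adjusted p = 0.0785), and the values were 0.70 for *Gpr176*, 0.66 for *Rasd1* and −0.11 for *Prokr2*. The first 4 of these were higher in the SCN in both genotypes. In wild-type hamsters the SCN level was 2.49 times the cortex level for *Htr7* (95% interval 1.81 to 3.53) and 2.13 times for *Avpr1a* (1.31 to 3.68), and in *duper* hamsters it was 2.67 times (2.01 to 3.57) and 2.25 times (1.28 to 4.05). These intervals, like all below, treat estimated counts as counts and cover counting error only. *Prokr2* had 1.54 times the cortex level in the wild-type SCN (1.03 to 2.40), and the *duper* SCN had 0.445 times (0.172 to 1.03).

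The calls for SCN over cortex differed with the libraries in the fit, and so did the share of all genes called. The main fit called 2091 of the 19780 genes tested, 35.6% of them higher. The fit to the 4 cortex and SCN libraries called 3542 of 16903, 44.3% of them higher. The calls of *Grpr* are counted below but remain a description, as above. With the 4 cortex and SCN libraries alone, *Htr7* (adjusted p = 0.000261), *Gpr176* (0.00368), *Rasd1* (0.0107) and *Avpr1a* (0.0425) were called as well (edgeR in each case). In that fit 8 of the 9 were called higher. On leaving out 1 library, which of the 9 were called changed, and so did the number called among all genes. None of the 9 was called in every such fit. The log2 fold change in these fits was 4.38 to 5.47 for *Vipr2* and 2.27 to 4.07 for *Grpr*. It was 0.92 to 1.19 for *Adcyap1r1*, 1.07 to 1.345 for *Rgs16*, 0.81 to 1.54 for *Avpr1a* and 1.065 to 1.81 for *Htr7*. For *Gpr176* it was 0.30 to 1.16, for *Rasd1* 0.17 to 1.05 and for *Prokr2* −1.18 to 0.64. Under the 16 alternatives in which it was tested *Vipr2* stayed positive, between 2.91 and 5.47, and was called in 15. *Grpr* stayed positive in 16 of 16, between 1.91 and 4.07, and was called in 10.

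**Figure D2:**
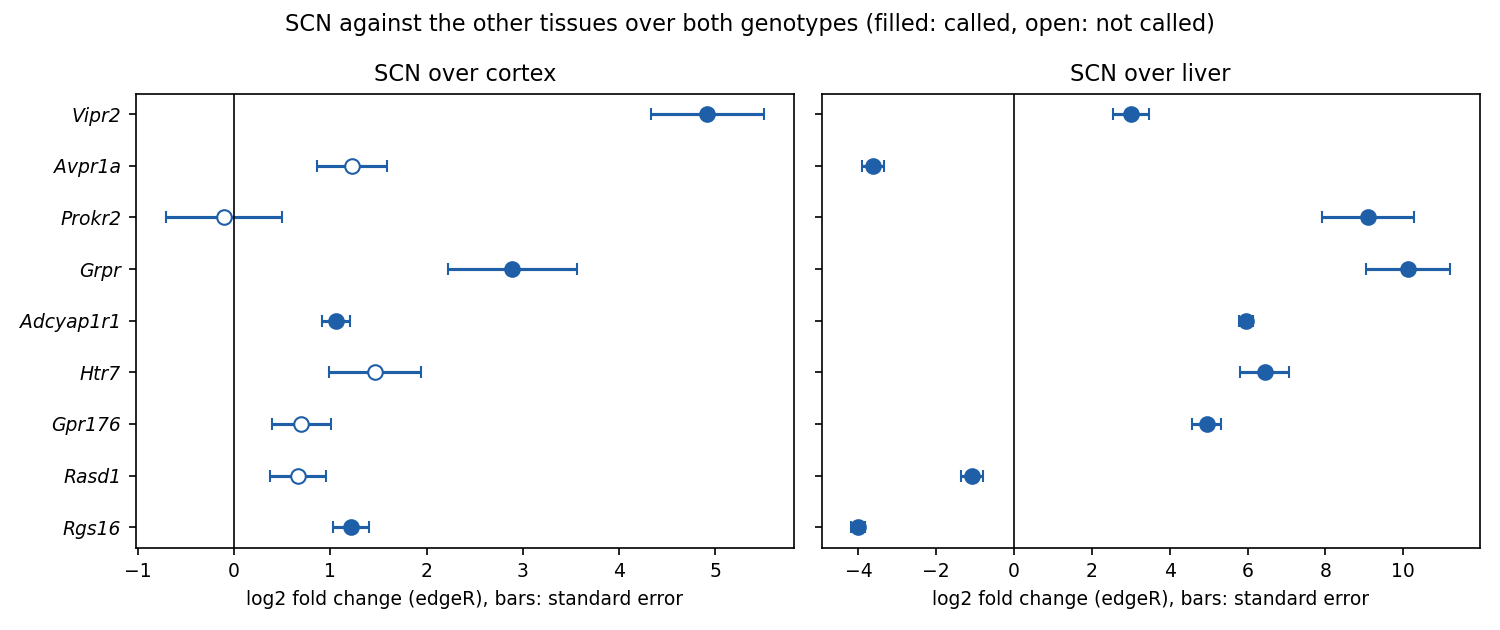
Log2 fold change (horizontal axis, edgeR, bars show the standard error) of SCN over cortex on the left and SCN over liver on the right for the 9 genes tested, with called genes filled and others open. *Vipr2* is at 4.92 over cortex, *Prokr2* is at −0.11 over cortex, and over liver *Rgs16* (−4.00), *Avpr1a* (−3.63) and *Rasd1* (−1.08) lie below 0. *Prokr2* and *Grpr* had 0 counts in liver, so their places on the right depend on the fit and are no measured folds.

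For SCN over liver, 5 of the same 8 genes were called higher and 3 lower, and *Grpr* was called higher as well, where 63.7% of all genes tested were called, 31.5% higher and 32.1% lower. *Vipr2* was 8.02-fold higher (standard error of the log2 fold change 0.46, edgeR adjusted p = 0.000833), and its log2 fold change lay between 2.27 and 4.74 under the 16 alternatives, called in all 16. In TPM the SCN level was 36.6 times the liver level in wild-type and 15.9 times in *duper* hamsters. The log2 fold changes were 5.96 for *Adcyap1r1*, 6.44 for *Htr7* and 4.95 for *Gpr176*. *Prokr2* and *Grpr* had 0 counts in liver, so their folds are bounds against 3 counts per library. *Prokr2* was at least 188-fold higher in the SCN of wild-type and at least 37.9-fold higher in that of *duper* hamsters, and *Grpr* at least 153-fold and 270-fold higher.

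Lower in the SCN than in liver were *Rgs16* (log2 −4.00, standard error 0.18, edgeR adjusted p = 1.18e-06), *Avpr1a* (−3.63, standard error 0.29, edgeR adjusted p = 2.81e-05) and *Rasd1* (−1.08, standard error 0.28, edgeR adjusted p = 0.0112). The sizes depended on the scaling. In TPM the log2 ratios of SCN over liver were −2.33 (wild type) and −2.54 (*duper*) for *Rgs16*, and −1.70 and −2.50 for *Avpr1a*. For *Rasd1* the call itself rested on the scaling. In TPM the SCN and liver levels of *Rasd1* overlapped, and with library size in place of TMM, or on log2 TPM with a pseudocount of 1 or 0.1, its log2 fold change was 0.25, 0.47 and 0.48. These scalings moved the median of all genes from −0.04 to 1.28, 1.07 and 1.44. The share of called genes that were higher in the SCN went from 49.5% to between 80.7% and 83.7%. Without the *duper* SCN *Rasd1* was at −0.66 (edgeR adjusted p = 0.0885), and without the *duper* liver at −0.56, under the fold threshold.

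Across the 3 tissues, *duper* over wild type, 0 of the 9 were called by edgeR, where 0.0758% of the 19780 genes tested were called. DESeq2 also called 0 of the 9, and 44 of all genes. At an unadjusted p under 0.05 there was 1 of the 9, *Prokr2*, against 3.52% of all genes. *Prokr2* was at −1.67 on the log2 scale (standard error 0.65, unadjusted p = 0.0414, adjusted p = 1 in the edgeR quasi-likelihood test). It was lower in *duper* in both brain tissues and listed at 0 in liver, and it was negative under all 15 alternatives in which it was tested, between −2.57 and −0.81, with adjusted p-values of 0.503 to 1. Without the *duper* SCN the value was −0.83 and without the wild-type SCN −0.81, and without the wild-type or *duper* cortex −2.57 and −2.56. *Grpr* was at 0.96 (standard error 0.63), *Htr7* at 0.59 (0.43) and *Vipr2* at −0.46 (0.41). *Adcyap1r1*, *Avpr1a*, *Gpr176*, *Rasd1* and *Rgs16* lay between −0.20 and 0.17. All 3 tissues were taken from the same animals of a genotype. They were taken at CT15 alone, so in each genotype comparison a shifted rhythm and a changed level cannot be told apart.

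Within the SCN, *duper* over wild type, there was 1 library per genotype and no test. For 9 genes the mean of the pair reached 1 TPM, and 2 of them lay past an absolute log2 ratio of 0.58, *Vipr2* and *Prokr2*, both lower in *duper*. Of the 18305 genes with such a mean, 14.4% were past it, 7.7% lower and 6.67% higher. Low genes pass it more often, and of the 10217 genes between 1 and 20 TPM it was 23.2%.

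*Vipr2* had 678 estimated counts in wild-type and 81.5 in *duper* hamsters, where the wild-type level would give 160.7. The *duper* level was 0.507 times the wild-type level (95% interval 0.398 to 0.639), a log2 ratio of −0.88 on the log2(TPM + 1) scale, which understates the change of low genes. For *Prokr2* the counts were 208 and 8, where the wild-type level would give 49.3 in the *duper* library. Its *duper* level was 0.162 times the wild-type level (0.0691 to 0.326), a log2 ratio of −1.99. In cortex *Prokr2* had 27 and 23 counts and a *duper* level of 0.562 times the wild-type level (0.308 to 1.02), and *Vipr2* had too few counts there for a ratio, 5.10 and 3.06. Whether the *Prokr2* ratio differs between SCN and cortex was not tested, and the intervals overlap.

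*Rasd1* in the SCN was at 0.745 times the wild-type level (0.642 to 0.861), *Adcyap1r1* at 1.12 times (1.09 to 1.16) and *Grpr* at 1.41 times (1.03 to 1.92). These intervals exclude a ratio of 1 for counting error alone, and none of the ratios was past 0.58 on the log2(TPM + 1) scale. The intervals of *Htr7* (0.989 to 1.42), *Avpr1a* (0.556 to 1.16), *Gpr176* (0.834 to 1.09) and *Rgs16* (0.790 to 1.1) include 1. For these 4 genes a difference within the bounds was not detectable at this depth.

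**Figure D3:**
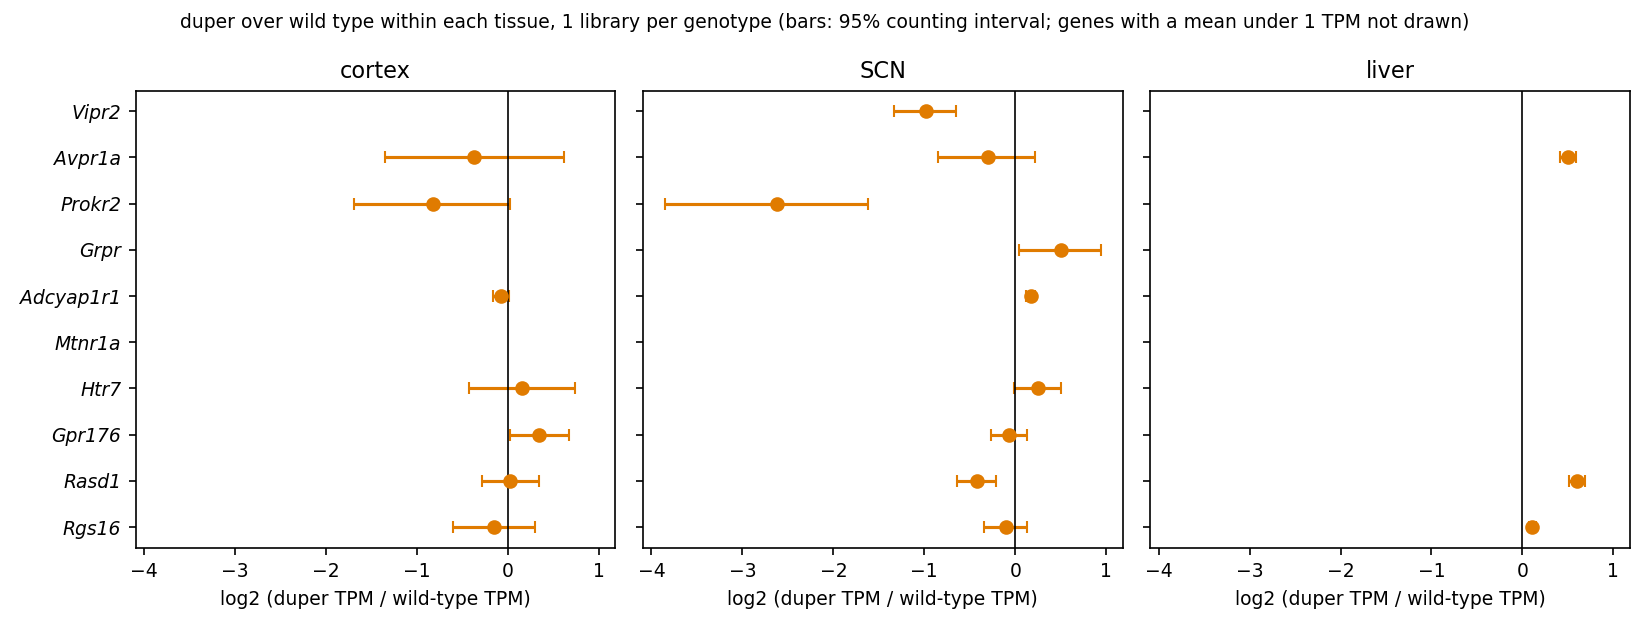
Log2 ratio of the *duper* over the wild-type TPM without a pseudocount (horizontal axis) in cortex, SCN and liver, 1 library per genotype. Bars are 95% intervals for counting error, and a gene with a mean under 1 TPM in a tissue is not drawn. In the SCN *Prokr2* and *Vipr2* lie lowest, and in liver *Rasd1* and *Avpr1a* lie above 0.

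The libraries of the SCN also differed in markers of the nucleus and its surroundings. Of the 9 SCN markers 5 were lower and 4 higher in *duper*, with a median log2 ratio of −0.26 and sums of 603.5 TPM (wild type) and 599 TPM (*duper*), carried by the GABA synthesis genes *Gad1* and *Gad2*. *Nms* was at 0.401 times the wild-type level (0.178 to 0.794), *Six6* at 0.683 times (0.420 to 1.07) and *Six3* at 0.735 times (0.632 to 0.852), while *Rorb* had 17.7 TPM in both libraries and *Zfhx3* 16.9 and 17.6 TPM. *Lhx1* was at 0.635 times in TPM but at 1.02 times in CPM, the count scaled by library total alone, from 223 and 55 counts.

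Markers of neighbouring tissue moved further. The 7 measured pituitary and pars tuberalis markers summed to 13.6 TPM in the wild-type and 73.7 TPM in the *duper* SCN, mostly *Cga*, the common subunit of the glycoprotein hormones, with 1 and 82 counts. *Pitx1* of that list was at 0 in both. The 7 measured neighbouring hypothalamus markers summed to 89.0 and 62.3 TPM, with *Kiss1* at 1.89 and 15.3 TPM and *Pmch* at 58.2 and 11.4 TPM. The 6 measured choroid plexus and ependyma markers summed to 187 and 37.1 TPM, mostly *Ttr*. These differences stood beside lower *Vipr2*, *Prokr2* and *Rasd1* and higher *Grpr* and *Adcyap1r1* in the *duper* SCN, and their part in the result was not tested.

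**Figure D4:**
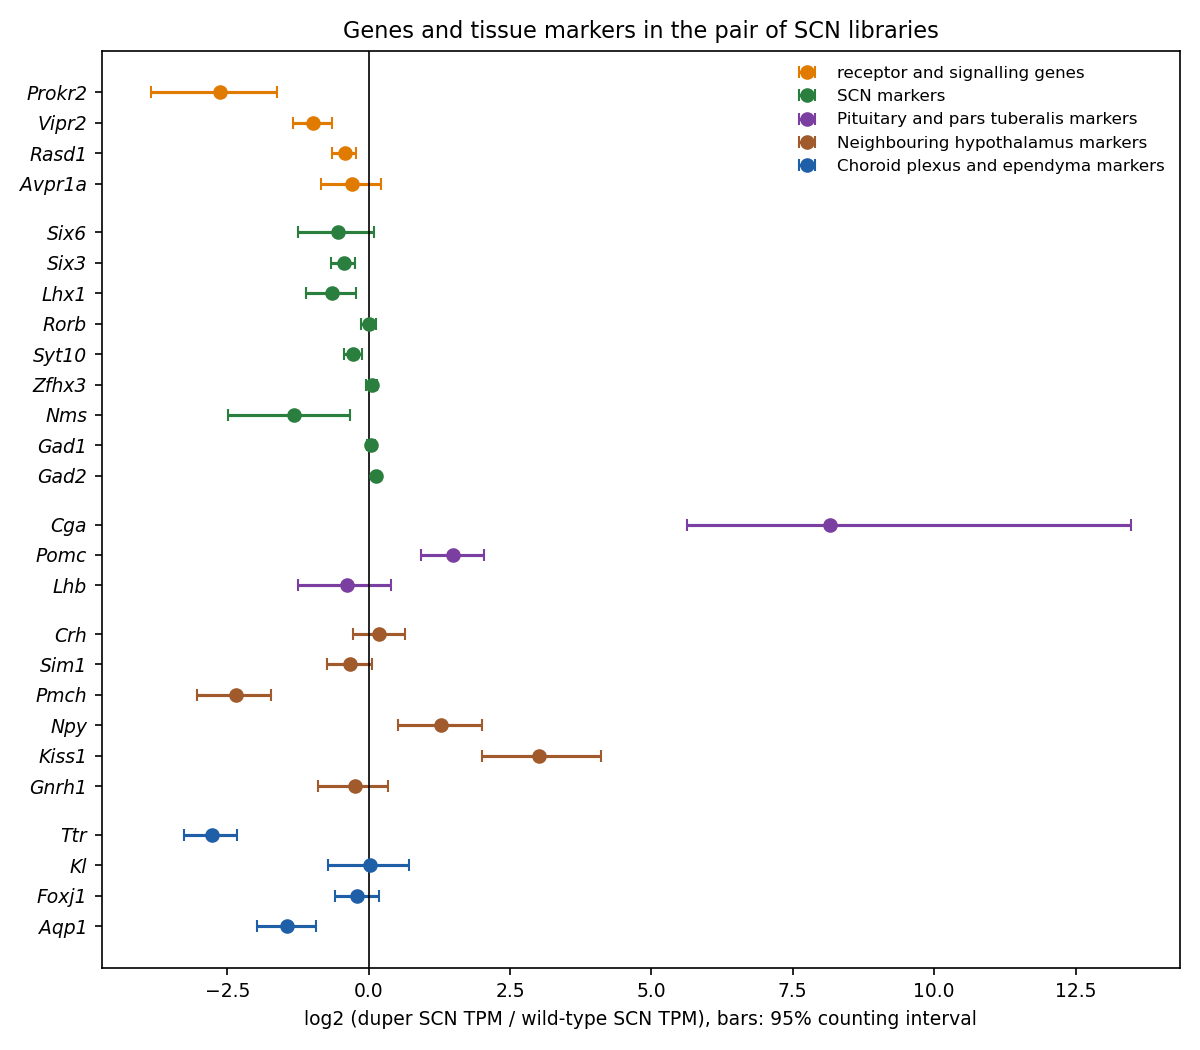
Log2 ratio of the *duper* over the wild-type SCN TPM (horizontal axis, bars are 95% intervals for counting error). Drawn are the 4 of the 10 genes with the lowest ratios, and the tissue markers that averaged 1 TPM or more and had counts in both libraries. Of the genes not drawn, *Grpr* (0.50), *Htr7* (0.25) and *Adcyap1r1* (0.17) were above 0, and *Gpr176* (−0.06) and *Rgs16* (−0.10) below it. *Prokr2* and *Vipr2* lie below 0. Of the 9 SCN markers 5 were lower in *duper*, *Nms* the furthest, and 4 were higher. *Cga* and *Kiss1* lie far above 0, and *Pmch* and *Ttr* far below.

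Within cortex, where 7 genes reached a mean of 1 TPM, 1 was past 0.58, *Prokr2* at −0.67, against 16% of all such genes. *Gpr176* was at 1.27 times the wild-type level (1.02 to 1.59). *Grpr* had 2 and 15 counts, a ratio of 4.97 with an interval of 1.15 to 44.7, and a mean under 1 TPM. The cortex libraries also differed in other listed genes. In wild-type and *duper* cortex, *Drd1* had 22.4 and 5.74 TPM, *Drd2* 20.57 and 6.07, *Adora2a* 19.42 and 2.49 and *Rgs9* 32.25 and 6.03. *Gal* went the other way, at 1.215 and 9.09 TPM. The part of such differences in the cortex ratios, that of *Prokr2* among them, was not tested. Within liver, 0 of 3 were past 0.58, against 15.3% of all such genes. *Rasd1* came just short, with a log2 ratio of 0.58 after rounding and a *duper* level of 1.52 times the wild-type level (1.43 to 1.61), and *Avpr1a* was at 1.42 times (1.33 to 1.51). With TMM-normalized CPM in place of TPM their log2 ratios were 0.77 and 0.67, past the threshold. The median of all genes in liver was −0.10 in TPM and 0.05 in that CPM. *Rgs16* was at 1.08 times the wild-type level (1.05 to 1.11).

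Of all genes tested, 10.6% were called in SCN over cortex, 3.77% higher and 6.8% lower, which stands beside this list and those below. Of 10 listed ligand genes, 6 were measured and 4 tested. *Gal*, the gene of galanin, was called higher in the SCN than in cortex, at 4.22 on the log2 scale (edgeR adjusted p = 0.00513), and was the only one of 4 tested to be called. The median over the 4 was 2.65, and 0 to 3 of them were called under the alternatives. *Nms* had 0 counts in cortex and did not pass (edgeR adjusted p = 0.0629). *Adcyap1*, which encodes PACAP, had 32.7 and 31.5 TPM in the wild-type and *duper* SCN and 19.4 and 24.7 TPM in cortex. *Prok2*, the gene of the *Prokr2* ligand, had 0.529 and 0.237 TPM in the SCN, from 11 and 1 counts, too low to compare.

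Among relatives of the 10 in the same families, 19 receptor genes were tested, with a median of 0.38. Of these 26.3% were called, against 10.6% of all genes tested. In number, 1 was called higher and 4 lower than in cortex. On leaving out 1 library these counts were 0 to 3 higher and 1 to 5 lower, with the fewest without a cortex library and the most without a liver library. *Brs3*, a relative of *Grpr*, was at 6.07, while *Vipr1*, the other VIP receptor gene, was at −5.84, the serotonin receptor gene *Htr1f* at −2.69 and *Prokr1* at −1.91. *Vipr1* had 0.510 and 0.407 TPM in the SCN, below *Vipr2* in both libraries. Of the 19 RGS and Ras-like relatives tested, 1 was called higher, *Rgs11* at 1.27, and 5 lower, among them *Rgs4* at −2.25, *Rgs6* at −1.62 and *Rasd2* at −1.55, with a median of −0.22 and, on leaving out 1 library, 0 to 2 higher and 1 to 6 lower.

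Of 33 other receptors of SCN input and coupling pathways, 57.6% were called, against 10.6% of all genes tested. In number, 9 were called higher and 10 lower, with a median of −0.10. Leaving out 1 library gave 5 to 12 higher and 4 to 13 lower, the fewest without a cortex library and the most without a liver library. The highest were the cholecystokinin receptor gene *Cckar* at 8.01, the calcitonin receptor gene *Calcr* at 3.87 and the galanin receptor gene *Galr1* at 3.30, and the lowest were *Chrm1* at −4.28, *Cckbr* at −2.60 and *Chrm3* at −2.42, a pair of muscarinic receptor genes and the other cholecystokinin receptor gene. *Cckar* and *Brs3* each had 1 count in cortex over both libraries, so the size of their fold changes is uncertain. Of 44 signalling partners, 2 were called higher, the adenylyl cyclase gene *Adcy7* at 1.00 and the inhibitory G protein gene *Gnai2* at 0.77, and 10 lower, led by the kinase gene *Camk2a* at −2.89, the calcium channel gene *Itpr1* at −2.81 and *Adcy1* at −2.73, with a median of −0.32. Without 1 library these were 0 to 3 higher and 6 to 11 lower. Between the genotypes 0 genes of these 5 lists were called by edgeR, with 3 of the 119 tested, 2.52%, at an unadjusted p under 0.05, and 1 of the other receptors was called lower in *duper* under 4 of 16 alternatives, among them those without either liver library.

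The split of counts over annotated transcripts was given for 3 genes. *Adcyap1r1* had 6, of which XM_040737300.1, of 6765 bases, took the largest share of the gene's counts in each brain library. In cortex its share was 52.5% for wild type (95% Clopper-Pearson interval 50.1 to 54.9) and 60.7% for *duper* (58.7 to 62.7). In SCN it was 49.2% for wild type (48.4 to 49.9) and 61.2% for *duper* (59.8 to 62.7). XM_040737298.1, of 6860 bases, took 35.7%, 28.7%, 38.4% and 27.9% in the same order. In both brain tissues the shorter one thus had the larger share in *duper*, with 1 library per genotype. Reads that fit several transcripts of a gene are divided among them by an estimate, an error that the interval does not cover.

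*Gpr176* had 4 annotated transcripts. XM_005064750.4 took 95.3% in cortex and 65.5% in SCN of wild-type hamsters, and 74.6% and 67.2% in those of *duper*, and nearly all of the rest was XM_013118048.3. For *Htr7*, XM_013117349.3 took 83.2% and 72.0% in the wild-type and *duper* SCN and 74.2% in the *duper* cortex, but 0% in the wild-type cortex, from 40 counts of the gene.

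**Figure D5:**
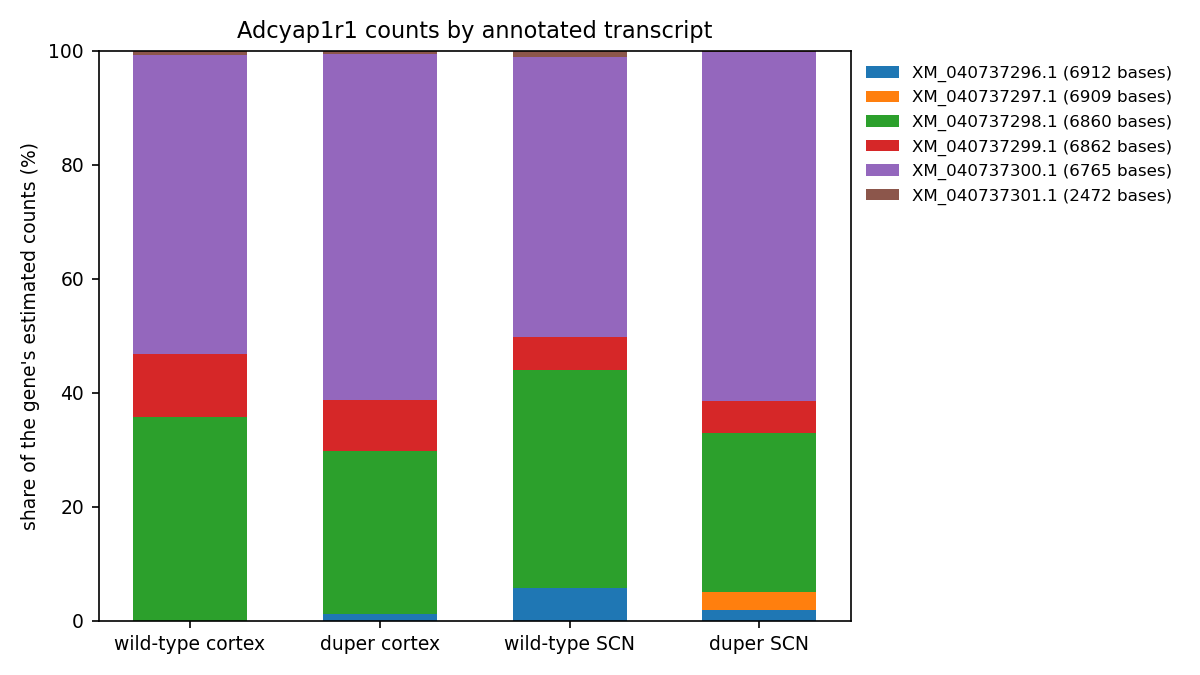
Share of the estimated counts of *Adcyap1r1* (vertical axis, percent) on each annotated transcript in the 4 cortex and SCN libraries, 1 bar per library. The share of XM_040737300.1 is 60.7% and 61.2% in the *duper* bars and 52.5% and 49.2% in the wild-type bars.

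The genes most like each member over the 6 libraries were taken by Pearson's r on log2(TPM + 1), among 13502 candidates, as a description over 6 points that share tissue and depth. *Vipr2* was most like *Nms* (r = 0.998), *Grpr* like *Trhr*, the gene of a receptor for TRH (0.997), *Gpr176* like *Sox1* (1.00 after rounding), and *Adcyap1r1* like *Lmln2* and *Vapb* (1.00 after rounding). *Htr7* was most like *Nagk* (0.999), *Avpr1a* like *Atoh8* (0.996) and *Rgs16* like the glucagon receptor gene *Gcgr* (0.999), with *Rasd1* lowest at 0.95 with *Il6st*. *Prokr2* had under 10 counts in the *duper* SCN and was not compared.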

How the data were processed

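RNA-seq libraries of cortex, SCN and liver of *duper* and wild-type hamsters were analysed, 1 per genotype and tissue, grouped by the deposited labels. The authors quantified a stranded mRNA library with Kallisto against MesAur2.0, added transcripts up per gene with tximport and deposited estimated counts, not normalized, and TPM per gene. They also deposited both units for 67818 transcripts per library. The deposited gene values equal the summed transcripts for 99.99% of values. The Kallisto version is not given in the sources used here. Positions and sequences were not used here, since the annotation table at hand is of another assembly name. The study's own test was DESeq2 adjusted for tissue.

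The estimated counts, rounded, went into edgeR 4.0.16 under R 4.3.3 (TMM, filterByExpr by tissue, which kept 19780 genes, quasi-likelihood F test, tissue and genotype as terms, 2 residual degrees of freedom) and p-values were adjusted over these genes by Benjamini-Hochberg. Within a tissue, log2 ratios of TPM + 1 and 95% Clopper-Pearson intervals (scipy 1.17.1) were computed, and 3 counts were taken as the floor. Python 3.11.15, numpy 2.4.6, pandas 2.3.3 and matplotlib 3.10.9 served for these steps. The steps were tested on simulated data.

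Alternatives were DESeq2 1.42.0, the likelihood ratio test, library size, other filters, no fold threshold, limma 3.58.1 on log2 TPM, counts thinned to 6788827 per library, no genotype term, fits to the tissues compared, leaving out each library, and other pseudocounts and scales. The genes and lists were chosen with earlier results of these data known. Of each list, called genes were named by size, up to 3 in each direction in SCN over cortex, and likeness was taken for those of the 10 genes with at least 10 counts in both SCN libraries, against all genes with a mean of 1 TPM or more, whatever their counts (*Nms* had 9 in the *duper* SCN). Ligand genes, markers and *Cry1* are given as listed.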

Additional observations from a re-analysis of the deposited data

Results flagged for a closer look

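In 3 of the 10 genes the *duper* over wild-type ratio went opposite ways between tissues, each with a counting interval that excludes no difference. The share of all genes that do so was not computed, so this count is a description only. All are log2 ratios of TPM without a pseudocount from 1 library per genotype and tissue, and in each case the difference between tissues was not tested. *Rasd1* was at −0.42 in SCN and 0.60 in liver. *Gpr176* was at 0.34 in cortex and −1.34 in liver, where it had 51 and 25 counts and a mean of 0.24 TPM. *Adcyap1r1* was at 0.17 in SCN and −0.34 in liver, where it had 279 and 280 counts and a mean of 0.90 TPM. Both of these liver means are under the minimum of 1 TPM used within a tissue above.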

How the results depend on the processing

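No pairing beyond the genotype term was possible, because each group held 1 library and the labels number no replicates. The genotype term already ties the tissues of 1 pool of hamsters in SCN over cortex and over liver. The number of genes called in SCN over cortex went from 2091 to 3394 with the likelihood ratio test, 3542 with the 4 cortex and SCN libraries, and 356 to 3623 on leaving out 1 library. For *duper* over wild type it went from 15 to 44 with DESeq2, 136 with the likelihood ratio test, 48 without a filter, 1 with at least 10 counts in every library, 2 and 1 with limma on log2 TPM plus 1 and plus 0.1, 42 with thinned counts, and 4 to 58 on leaving out 1 library. Genes past 0.58 within cortex and SCN fell from 2894 and 2631 to 1630 and 1326 with TMM-normalized CPM.

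*Prokr2* in SCN over cortex turned from −0.11 to 0.0753 with library size, 0.0911 with thinned counts and 0.31 without the genotype term, and lay between −1.18 and 0.64 on leaving out 1 library. *Rasd1* in SCN over liver turned to 0.25 with library size and 0.47 and 0.48 with limma. For *duper* over wild type, where 0 of the genes tested were called under any alternative (9 tested, or 5 with at least 10 counts in every library), the direction turned for *Rgs16* (−0.0356 with library size, −0.0432 and −0.0482 with limma, −0.14 with the 4 cortex and SCN libraries), *Avpr1a* (−0.0180 and −0.0519 with limma, −0.35 with those 4), *Gpr176* (0.0038 with limma plus 1, 0.10 thinned, 0.0847 with those 4), *Adcyap1r1* (0.0361 with those 4) and *Rasd1* (−0.24 with those 4). Leaving out 1 library gave −0.15 to 0.10 for *Rgs16*, −0.35 to 0.39 for *Avpr1a*, −0.52 to 0.0851 for *Gpr176*, −0.12 to 0.0327 for *Adcyap1r1*, −0.25 to 0.43 for *Rasd1* and −1.06 to 0.0053 for *Vipr2*. The cause was not tested in any of these. In SCN over liver the calls of the other 8 genes held under every alternative that tested them.

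Depth limits *Prokr2*, at 8 counts in the *duper* SCN, and *Grpr* and *Vipr2* in cortex. For *Mtnr1a*, at 0 throughout, the transcript model was not checked.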
